A study of Mus musculus with 2 samples.

Results

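The unfolded protein and secretory pathway genes described here are 38 genes of the endoplasmic reticulum (ER) folding and export machinery, taken by gene symbol from the 32285 genes in the deposited matrices, and all 38 had at least 1 count in both libraries. The cells are immune cells from the inflamed colon of C57BL/6 mice in which colitis was set off experimentally, read by 10x 3′ single-cell RNA sequencing. There was 1 library labelled CKO and 1 labelled WT. The series' title speaks of loss of RPA1 and of T cell necroptosis. The deleted allele, the Cre driver, the colitis protocol, the time of sampling and the number of mice behind each library could not be taken from the labels. Levels are unique molecular identifiers (UMIs, each standing for 1 captured RNA molecule) added up for each cell class and library and given as CPM, the standard scaling of counts to a common library total, here the UMIs of the class, or as a percent of those UMIs.

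Secretory proteins enter the ER through the Sec61 channel, lose their signal peptide, are folded by chaperones and disulfide isomerases, and are sent back to the cytosol for degradation if folding fails. A load of unfolded protein is sensed by IRE1 (encoded by Ern1), PERK (Eif2ak3) and ATF6, which act through the transcription factors XBP1, ATF4 and cleaved ATF6 to raise that machinery. Plasma cells, which secrete antibody, are the immune cells best known for depending on the IRE1 and XBP1 branch, and in the gut most of them make IgA.

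The library labelled CKO held 11311 barcodes with a median of 3338 UMIs, and the library labelled WT 2972 barcodes with a median of 4083 UMIs. After filters, 10942 CKO and 2924 WT cells were kept, and clustering without the 38 genes put 509 CKO and 250 WT cells in a plasma-like cluster and 5088 CKO and 1173 WT cells in B-like clusters. Plasma-like cells were deeper than B-like cells, with medians of 16397 UMIs in the CKO library and 21253 in the WT library, against 2924 and 3972 UMIs in B-like cells. Immunoglobulin genes took 50.6% of the UMIs of plasma-like cells in the CKO library and 51.6% in the WT library, against 0.902 and 1.31% in B-like cells. All 9 plasma markers were detected in plasma-like cells and summed to 494700 CPM in the CKO library and 496000 CPM in the WT library, while the 9 T cell markers summed to 41.5 and 157 CPM and the 9 neutrophil markers to 156 and 109 CPM there. Rpa1 had 55.9 CPM in CKO T-like cells and 37.5 CPM in WT T-like cells. A 3′ count need not cover the deleted part of a gene, so this checks no label. With 1 library per label there was no test. Intervals are 95% and cover counting error only, and a gene was counted as higher or lower at 1.5-fold where it had at least 20 UMIs over both sides.

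Plasma-like cells gave the 38 genes 1.92% of their UMIs in the CKO library, against 0.437% in B-like cells. In the WT library the shares were 1.82% in plasma-like cells and 0.427% in B-like cells. The ratio was 4.4-fold in the CKO library (log2 2.14, interval 2.13 to 2.15) and 4.26-fold in the WT library (log2 2.09, interval 2.07 to 2.11). Of the 38 genes, 31 were higher and 2 lower in plasma-like cells of the CKO library, where 12.2% of all 10929 genes read were higher and 70.3% lower. In the WT library 34 were higher and 2 lower, where 11.9% of 9765 genes were higher and 69.7% lower. The median log2 ratio of the 38 genes was 2.15 in the CKO library, against -1.30 over all genes read, and 2.10 in the WT library, against -1.18. With immunoglobulin genes taken out of the totals the medians were 3.15 and 3.12, against -0.30 and -0.15 over all genes. Because antibody transcripts fill about as much of the plasma-cell library as all other genes together, a CPM in plasma-like cells is pressed down by them, and both scales are therefore given. The same 31 genes were higher in both libraries. Trib3, Calr and Pdia3 passed the fold in the WT library and not in the CKO library, a difference that was not tested. Eif2ak3 and Ddit3 were lower in both, and Atf4 and Canx passed the fold in neither.

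**Figure D1:**
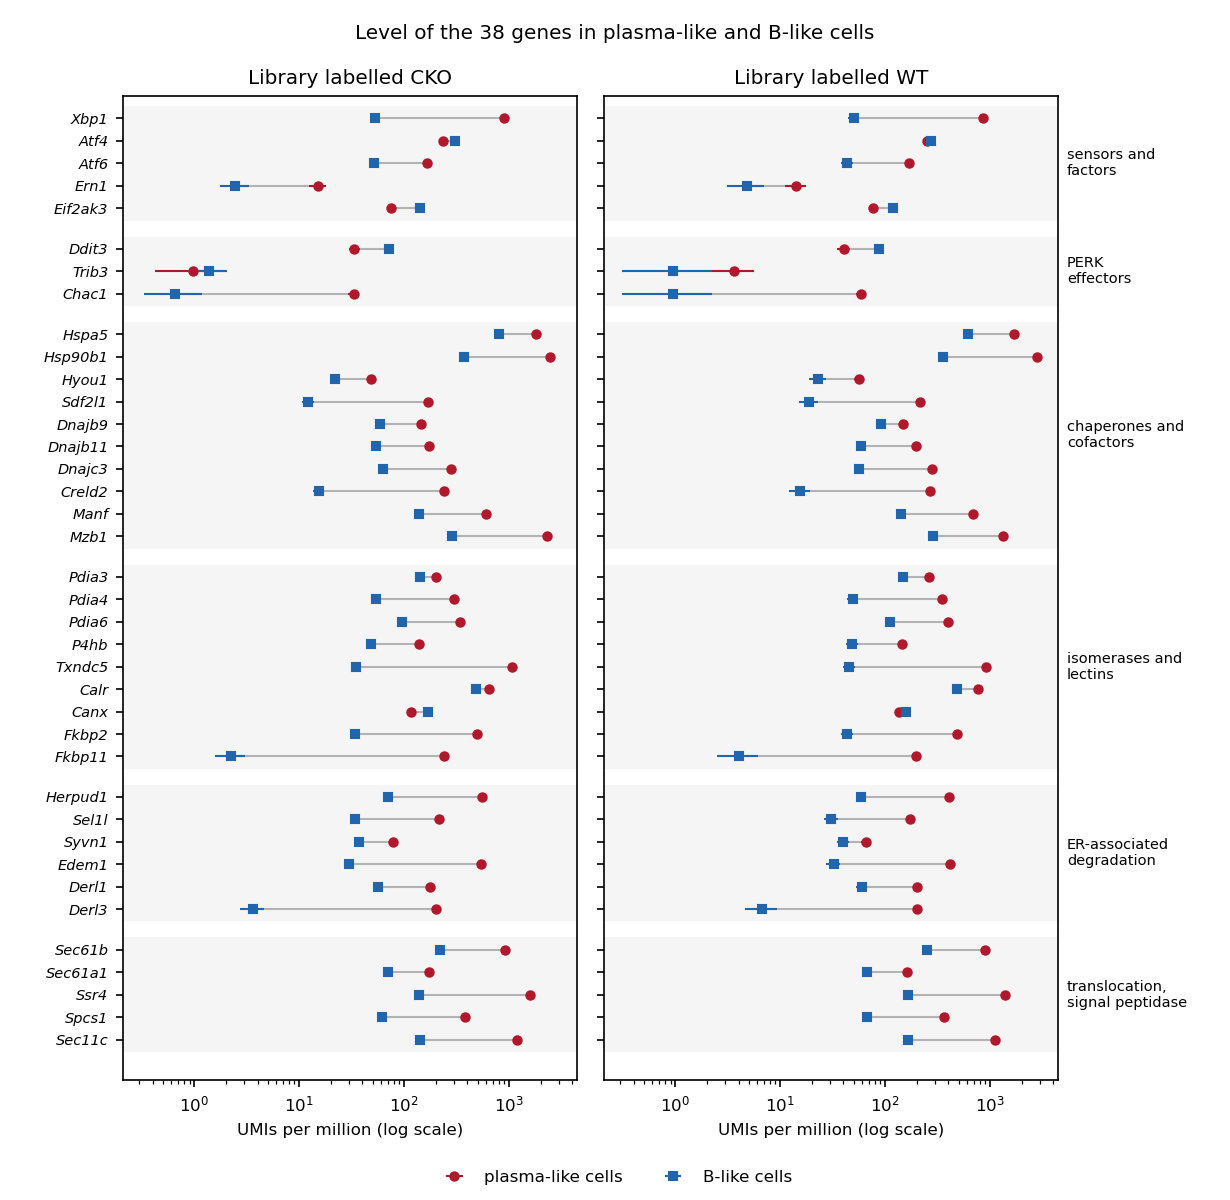
Level of each of the 38 genes (CPM, log scale) in plasma-like cells (circles) and B-like cells (squares), in the library labelled CKO at the left and the library labelled WT at the right, with 95% Poisson intervals over UMIs. For all genes of the chaperone, ER-associated degradation and translocation groups the circle lies right of the square in both libraries, while for Eif2ak3, Ddit3, Atf4 and Canx it lies left of it.

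The transcription factors and sensors did not move as a block. Xbp1, the factor spliced by IRE1, had 884 CPM in plasma-like cells and 52.8 CPM in B-like cells of the CKO library, and 853 CPM and 49.96 CPM in those of the WT library. These are log2 ratios of 4.07 (3.97 to 4.17) and 4.09 (3.91 to 4.28), and both libraries thus placed Xbp1 at the same height. A 3′ count does not tell the spliced Xbp1 transcript from the unspliced one. Atf6, the sensor that is cut in the Golgi to release a transcription factor, had 167 CPM in plasma-like and 51.8 CPM in B-like cells of the CKO library, and 168 CPM and 43.5 CPM in those of the WT library. Ern1, the sensor that splices Xbp1, was scarce in both cell types, with 14.9 CPM in plasma-like and 2.45 CPM in B-like cells of the CKO library, and 14.1 CPM and 4.77 CPM in those of the WT library. The PERK gene Eif2ak3 went the other way, with 74.4 CPM in plasma-like and 141 CPM in B-like cells of the CKO library, and 77.2 CPM and 119 CPM in those of the WT library. Atf4, the factor whose translation PERK signalling raises, had 232 CPM in plasma-like and 307 CPM in B-like cells of the CKO library, and 253 CPM and 274 CPM in those of the WT library. With immunoglobulin genes out of the totals, Atf4 had log2 ratios of 0.60 and 0.91 and Eif2ak3 of 0.08 and 0.40, so the direction of both turns on that scaling.

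The genes downstream of PERK and ATF4 split. Chac1, an enzyme that breaks down glutathione, had 32.9 CPM in plasma-like and 0.658 CPM in B-like cells of the CKO library, and 59.3 CPM and 0.953 CPM in those of the WT library. Its log2 ratios were 5.64 (4.78 to 6.66) and 5.96 (4.72 to 7.59), resting on 11 and 5 UMIs in B-like cells. Ddit3, which encodes the pro-apoptotic factor CHOP, had 33.5 CPM in plasma-like and 71.7 CPM in B-like cells of the CKO library, and 40.3 CPM and 86.4 CPM in those of the WT library. Its log2 ratio was -1.10 in both, and -0.09 and -0.07 with immunoglobulin genes out of the totals, so the lower level of Ddit3 also goes with that scaling. Trib3, a pseudokinase induced by ATF4 and CHOP, had 8 and 19 UMIs in plasma-like cells of the CKO and WT libraries and 23 and 5 UMIs in B-like cells. It is too rare here for its direction to be read. The high level of Chac1 thus stood beside a Ddit3 level that was not high in the same cells.

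All 10 chaperones and cofactors were higher in plasma-like cells of both libraries, with medians of log2 2.15 and 2.26. Hspa5, the HSP70 chaperone BiP, had 1820 CPM in plasma-like and 799.7 CPM in B-like cells of the CKO library, and 1698 CPM and 619 CPM in those of the WT library. Its log2 ratios of 1.19 (1.15 to 1.22) and 1.46 (1.40 to 1.52) were below the median of the 38 genes. Hsp90b1, the ER form of HSP90, had 2479 CPM in plasma-like and 369 CPM in B-like cells of the CKO library, and 2807 CPM and 359 CPM in those of the WT library. Mzb1, a partner of HSP90B1 in antibody-making cells, had 2276 CPM in plasma-like and 284 CPM in B-like cells of the CKO library, and 1338 CPM and 283 CPM in those of the WT library. Its log2 ratio was 3.01 (2.96 to 3.05) in the CKO library and 2.24 (2.16 to 2.32) in the WT library, although B-like cells of the libraries held the same level. Creld2, a secreted ER stress protein with isomerase activity, reached log2 3.96 and 4.12, and Sdf2l1, part of a BiP cochaperone complex, 3.79 and 3.52. The J-domain proteins that pass substrates to BiP were higher by log2 1.28 and 0.70 (Dnajb9), 1.67 and 1.74 (Dnajb11) and 2.17 and 2.30 (Dnajc3) in the CKO and WT libraries. Manf, a secreted BiP-binding factor, had log2 ratios of 2.12 and 2.28, and Hyou1, an exchange factor for BiP, of 1.16 and 1.31.

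The folding enzymes and lectins ranged widely, with log2 ratios between -0.54 and 6.77 in the CKO library and between -0.21 and 5.61 in the WT library. Fkbp11, a prolyl isomerase of the ER, had 241 CPM in plasma-like and 2.21 CPM in B-like cells of the CKO library, and 196 CPM and 4.004 CPM in those of the WT library. Its log2 ratio of 6.77 (6.30 to 7.28) was the largest of the 38 in the CKO library, and its 5.61 (4.99 to 6.31) in the WT library came after that of Chac1. Txndc5, a disulfide isomerase, had 1074 CPM in plasma-like and 34.9 CPM in B-like cells of the CKO library, and 918 CPM and 45.2 CPM in those of the WT library. Fkbp2, another prolyl isomerase, followed with log2 3.88 and 3.46. The disulfide isomerases Pdia4 (log2 2.45 and 2.83), Pdia6 (1.85 and 1.84) and P4hb (1.502 and 1.599) were also higher, Pdia4 above and the other pair below the median of the 38. Pdia3, which acts with the lectin chaperones on glycoproteins, differed by only log2 0.50 and 0.83, and the lectin Calr, calreticulin, by 0.43 and 0.68. Canx, calnexin, the membrane-bound lectin of that pair, had 115 CPM in plasma-like and 167 CPM in B-like cells of the CKO library, and 136 CPM and 157 CPM in those of the WT library. Pdia3, Calr and Canx thus differed least among the 9 isomerases and lectins, and with immunoglobulin genes out of the totals Canx stood at log2 0.47 and 0.82.

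All 6 genes of ER-associated degradation were higher in plasma-like cells of both libraries. Derl3, a channel-like protein of the retrotranslocation step, had 201 CPM in plasma-like and 3.59 CPM in B-like cells of the CKO library, and 199 CPM and 6.67 CPM in those of the WT library. Derl1, of the same family, differed less, with log2 ratios of 1.64 and 1.77 against 5.81 and 4.90 for Derl3. Edem1, which acts on the glycans of misfolded proteins, had 539.5 CPM in plasma-like and 29.9 CPM in B-like cells of the CKO library, and 417 CPM and 32.2 CPM in those of the WT library. Herpud1, a scaffold of the ubiquitin ligase, had log2 ratios of 2.98 and 2.79. The ligase Syvn1 had log2 ratios of 1.08 and 0.72, and its partner Sel1l of 2.66 and 2.49.

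All 5 genes of translocation and signal peptide removal were higher as well, and more evenly, with log2 ratios between 1.30 and 3.51 in the CKO library and between 1.26 and 3.08 in the WT library. Ssr4, a subunit of the translocon-associated complex, had 1565 CPM in plasma-like and 137 CPM in B-like cells of the CKO library, and 1390 CPM and 165 CPM in those of the WT library. Sec11c, a catalytic subunit of signal peptidase, had 1190 CPM in plasma-like and 142 CPM in B-like cells of the CKO library, and 1118 CPM and 165 CPM in those of the WT library. Spcs1, a noncatalytic subunit of the same enzyme, reached log2 2.63 and 2.43. The channel subunits Sec61b (2.07 and 1.82) and Sec61a1 (1.30 and 1.26) were the lowest of the group. Across the 38 genes the ratios of the libraries went together (Pearson's r 0.955 over genes, which share the totals of their library), with a median difference of -0.01 between CKO and WT log2 ratios.

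RNA of plasma cells was counted in other cells as well. Jchain, the joining chain of IgA and IgM, had 47560 CPM in plasma-like and 218 CPM in B-like cells of the CKO library, and 53230 CPM and 502.5 CPM in those of the WT library. At each gene's ratio to Jchain in plasma-like cells, the Jchain UMIs of B-like cells would carry 50.03 and 46.1% of their Fkbp11 UMIs, 25.7 and 28.1% of Derl3 and 14.1 and 19.2% of Txndc5 in the CKO and WT libraries. For Mzb1 the same figure was 3.68 and 4.46%, so B-like cells held Mzb1 far beyond that ratio. The part of such RNA in the ratios above was not tested. After thinning every cell to 1000 UMIs, Mzb1 was found in 78.9% of plasma-like and 22.03% of B-like cells of the CKO library, and in 62.6 and 21.3% of those of the WT library. In T-like cells, which should lack Mzb1, it was found in 1.89% of cells of the CKO library and 4.46% of the WT library. Unthinned shares of cells with an Mzb1 UMI were 98.8% in plasma-like, 50.2% in B-like and 8.36% in T-like cells of the CKO library, and 98.0, 57.8 and 15.9% in those of the WT library. Thinning left out 2 and 4 plasma-like, 126 and 42 B-like and 10 and 7 T-like cells in the CKO and WT libraries.

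The promoters of these genes are shown because the higher level shared by the chaperone and degradation genes is what the comparison turns on, and their ER stress response elements are known as sites for ATF6, XBP1 and NF-Y. RefSeq promoter windows of 300 bases (GRCm38.p6) were found for 31 of the 38 genes. The element called ERSE (CCAAT and CCACG with any 9 bases between them, both strands) was in the windows of 9 of them, against 0.119% of all 32817 windows: Calr, Canx, Creld2, Derl3, Dnajc3, Hsp90b1, Hspa5, Pdia6 and Syvn1. ERSE-II (ATTGG and CCACG with any 1 base between them) was in those of Dnajb11 and Herpud1, against 0.0366% of all windows, and no match of it overlapped an ERSE. The amino acid response element bound by ATF4 (TGATGNAA) was in those of Chac1, Herpud1, Trib3 and Txndc5, against 3.97% of all windows. The element bound by XBP1 and ATF6 (TGACGTGG) was in another window of Txndc5, against 0.676%. The genes were picked for this pathway, so these counts describe them and do not test an excess over all windows. Counts are of genes, some with more than 1 window, and percents are of windows. The stretches below lie upstream of the annotated starts and are written along the strand of the gene, with these elements in capitals, also where they match the other strand. They are chr2:34771985-34772084 (plus strand) for Hspa5, chr10:86705533-86705656 (minus) for Hsp90b1, chr15:88819480-88819579 (plus) for Creld2, chr10:75893202-75893301 (plus) for Derl3, chr8:94386303-94386402 (plus) for Herpud1, chr2:119351003-119351102 (plus) for Chac1 and chr11:50325759-50325858 (minus) for Canx.
Hspa5: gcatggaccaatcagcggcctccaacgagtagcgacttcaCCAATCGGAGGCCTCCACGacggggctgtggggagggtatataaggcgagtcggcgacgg
Hsp90b1: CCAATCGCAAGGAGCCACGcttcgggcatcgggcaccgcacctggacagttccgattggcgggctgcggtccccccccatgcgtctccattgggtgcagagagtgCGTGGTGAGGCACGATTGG
Creld2: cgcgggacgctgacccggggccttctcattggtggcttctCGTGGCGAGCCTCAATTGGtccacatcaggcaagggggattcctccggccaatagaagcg
Derl3: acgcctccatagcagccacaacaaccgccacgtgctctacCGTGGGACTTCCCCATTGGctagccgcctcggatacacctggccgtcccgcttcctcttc
Herpud1: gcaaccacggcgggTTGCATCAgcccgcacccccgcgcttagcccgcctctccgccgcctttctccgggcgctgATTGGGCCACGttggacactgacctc
Chac1: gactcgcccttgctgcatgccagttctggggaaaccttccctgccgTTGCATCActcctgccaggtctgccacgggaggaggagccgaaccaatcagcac
Canx: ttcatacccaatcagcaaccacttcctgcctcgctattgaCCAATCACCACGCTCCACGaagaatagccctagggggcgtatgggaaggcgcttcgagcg

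The ratios of genes with and without a match differed by element. Of the 9 genes with an ERSE, 7 were higher in plasma-like than in B-like cells of the CKO library and 8 in the WT library, with median log2 ratios of 1.85 and 1.84. Of the 22 genes with a window and no ERSE, 17 and 19 were higher, with medians of 2.62 and 2.46. The 4 genes with the ATF4 element had the higher medians, at 3.96 in the CKO library and 3.57 in the WT library, against 2.17 and 1.84 for the 27 without it. They include Trib3, too rare for its direction to be read, and Txndc5, which also has the XBP1 and ATF6 element. Txndc5, the 1 gene with the XBP1 and ATF6 element, was at 4.94 and 4.34, against medians of 2.31 and 2.11 for the 30 without it. Canx carries an ERSE in the stretch above and was not higher in plasma-like cells in CPM, while Derl3 carries an ERSE and had log2 ratios of 5.81 and 4.90. Hsp90b1 has 2 exact ERSE matches and Hspa5 has 1, and the ratio of Hsp90b1 was the larger in both libraries. Variants of the element were not counted, and whether the number of matches goes with the ratio was not tested. A match is a description of the letters, and binding was not measured.

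Among the named classes of at least 20 cells, plasma-like cells had the highest level of 25 of the 38 genes in the CKO library (12 classes) and of 29 in the WT library (9 classes), with 25 genes in both. For 21 of them in the CKO library and 24 in the WT library, the interval of the ratio to the next class lay above 0. The order of classes was not taken over all genes, so these counts have no background share beside them. With immunoglobulin genes out of the totals, plasma-like cells had the highest level of 32 genes in the CKO library and 35 in the WT library. In CPM the other genes had their peaks elsewhere. Ern1 was highest in ILC3-like cells, a class of innate lymphocytes named here from its markers, with 293 CPM in the CKO library and 295 CPM in the WT library. ILC2-like cells followed with 168 and 159 CPM and NK-like cells with 117 and 176 CPM, while plasma-like cells had 14.9 and 14.1 CPM. The sensor that splices Xbp1 was thus more abundant in innate lymphocytes than in plasma-like cells, where Xbp1 itself peaked. Hspa5 was also highest in ILC3-like cells, with 3077 CPM in the CKO library and 2634 CPM in the WT library. For Hspa5, plasma-like cells ranked 8 of 12 classes in the CKO library and 4 of 9 in the WT library. Monocyte and macrophage-like cells had 2547 and 1793 CPM of Hspa5 and NK-like cells 2263 and 1809 CPM. With immunoglobulin genes out of the totals, Ern1 still peaked in ILC3-like cells of both libraries, whereas Hspa5 then peaked in plasma-like cells of both. The ILC3-like class held 110 CKO and 37 WT cells.

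Eif2ak3 was highest in B-like cells of both libraries, followed by plasma-like cells and then T-like cells with 36.1 CPM in the CKO library and 50.3 CPM in the WT library. No other named class of at least 20 cells exceeded 27.6 CPM in the CKO library, so PERK transcripts were most abundant in B-like and plasma-like cells, with plasma-like cells first once immunoglobulin genes were out of the totals. Plasma-like cells ranked 11 of 12 classes for Ddit3 in the CKO library and 7 of 9 in the WT library, and it had 114 CPM in neutrophil-like cells of the CKO library and 151 CPM in those of the WT library. In the CKO library the 40 epithelial-like cells, at 143.5 CPM, ranked above neutrophil-like cells, but not beyond counting error. Atf4 was spread evenly in CPM, from 167 to 350 CPM over the 12 classes of the CKO library. In the WT library it ran from 241 to 413 CPM over the 9 classes. Its leading classes did not differ beyond counting error. With immunoglobulin genes out of the totals, plasma-like cells led for Atf4 in both libraries. Pdia3, P4hb, Calr and Canx had their highest values in the 44 fibroblast-like cells of the CKO library, beyond counting error to the next class for Pdia3 alone, and without immunoglobulin genes Calr was highest in plasma-like cells. In the WT library, where fibroblast-like cells were too few to be read, dendritic-like cells led for Pdia3, P4hb and Calr and ILC3-like cells for Canx, of which P4hb and Canx did not lead beyond counting error. Without immunoglobulin genes, plasma-like cells of the WT library led for P4hb, Calr and Canx, and dendritic-like cells still led for Pdia3.

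**Figure D2:**
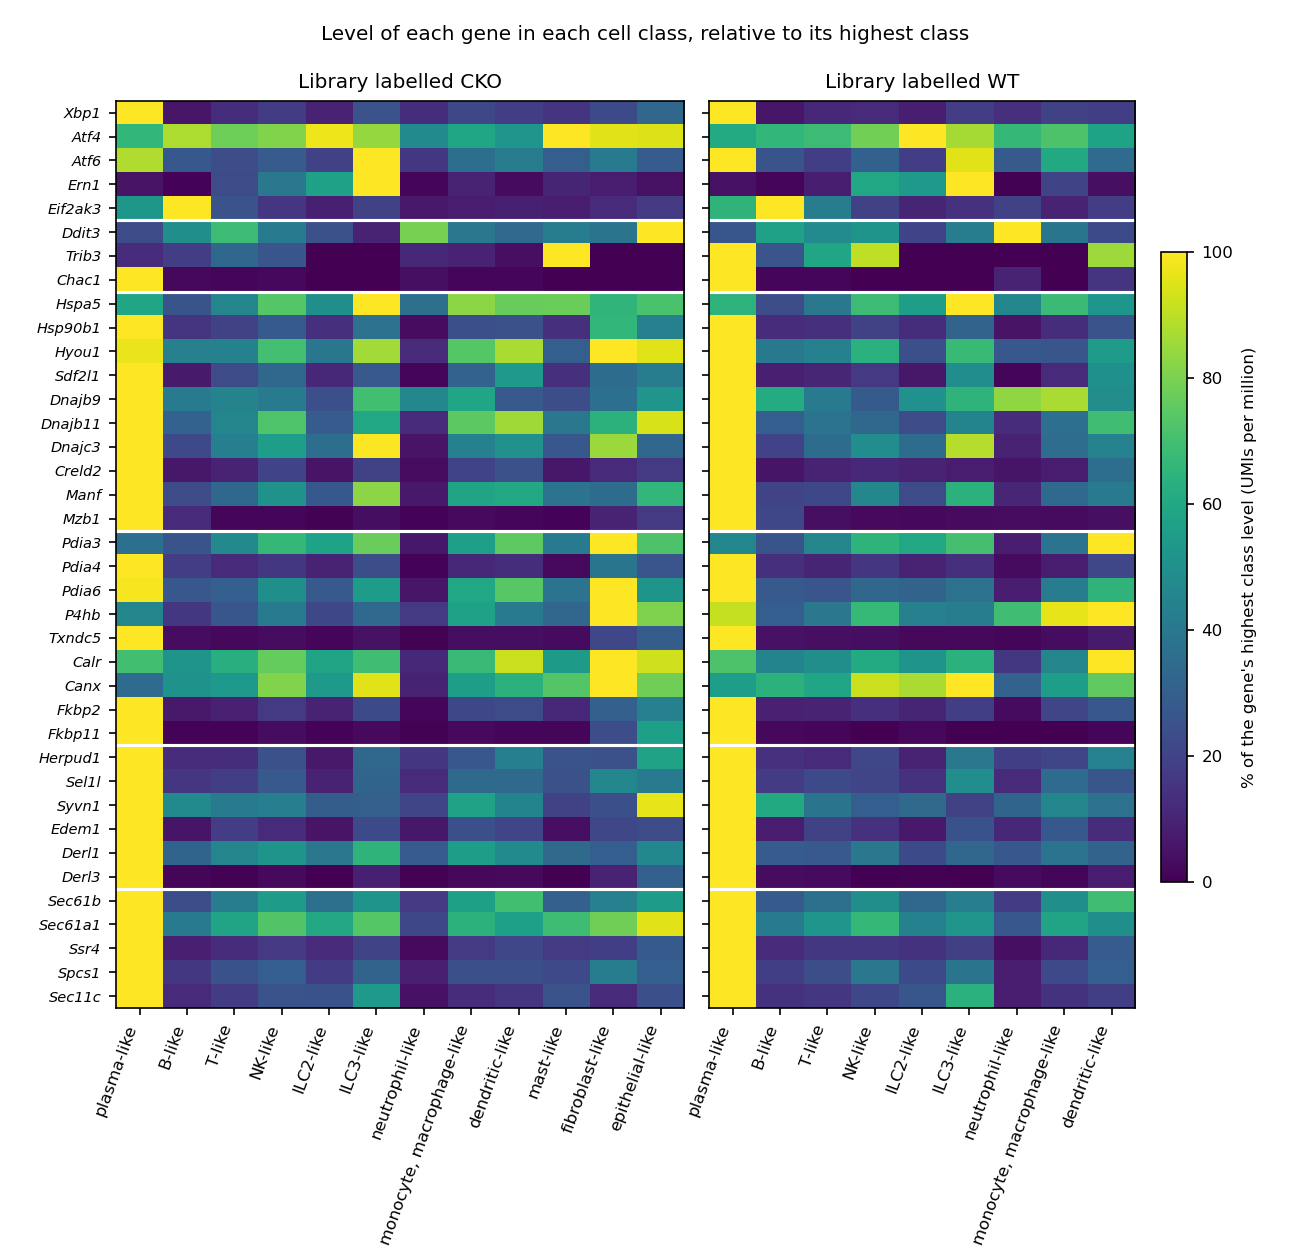
Level of each gene in each named class of at least 20 cells, as a percent of the level in the gene's highest class, for the library labelled CKO (12 classes, left) and the library labelled WT (9 classes, right), with white lines between the functional groups. The plasma-like column is at 100% for 25 genes in the left panel and 29 in the right, and Ern1, Hspa5 and Eif2ak3 have their highest level in other columns of both panels.

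Most of the 38 genes were also higher in plasma-like cells than in the other large classes. Plasma-like cells were higher than T-like cells for 30 of 37 genes read in the CKO library (9.73% of all genes) and lower for 3 (75.6%), and higher for 32 of 38 (9.75%) and lower for 2 (73.2%) in the WT library. Against neutrophil-like cells 35 of 37 genes were higher in the CKO library, where 43.6% of all genes were, and 32 of 37 in the WT library, where 35.0% were. Against monocyte and macrophage-like cells 27 of 37 genes were higher in the CKO library (13.0%) and 4 lower (63.3%), and 29 of 37 higher (15.4%) and 1 lower (61.1%) in the WT library. Against dendritic-like cells 26 of 37 were higher in the CKO library (12.6%) and 2 lower (65.6%), and 27 of 38 higher (18.0%) and 1 lower (56.8%) in the WT library. The summed share was 0.834% of UMIs in dendritic-like cells, 0.793% in monocyte and macrophage-like cells, 0.573% in T-like cells and 0.263% in neutrophil-like cells of the CKO library. In the WT library these classes had 0.784, 0.611, 0.489 and 0.338%. The dendritic-like cluster was named with none of its own markers among its leading genes.

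Cluster c7, led by the cell cycle genes Pclaf, Top2a and Mki67 and left unnamed, also held much RNA of these genes. It held 81 CKO and 55 WT cells and its immunoglobulin share was 13.3% in the CKO library and 10.3% in the WT library, far below that of plasma-like cells. Against B-like cells, c7 was higher for 34 of 37 genes in the CKO library (27.1% of all genes) and lower for 2 (34.8%), and higher for 30 of 36 (27.8%) and lower for 3 (28.2%) in the WT library. Plasma-like cells were higher than c7 for 10 of 37 genes in the CKO library (7.09%) and lower for 9 (69.3%), and higher for 21 of 38 (9.56%) and lower for 1 (68.0%) in the WT library. With immunoglobulin genes out of the totals, plasma-like cells were higher than c7 for 21 genes in the CKO library and 36 in the WT library, and lower for 0 in both. The share of all genes past the fold was not counted on that scale. The median log2 ratio there was 0.79 in the CKO library, against -0.26 over all genes, and 1.55 in the WT library, against -0.19.

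**Figure D3:**
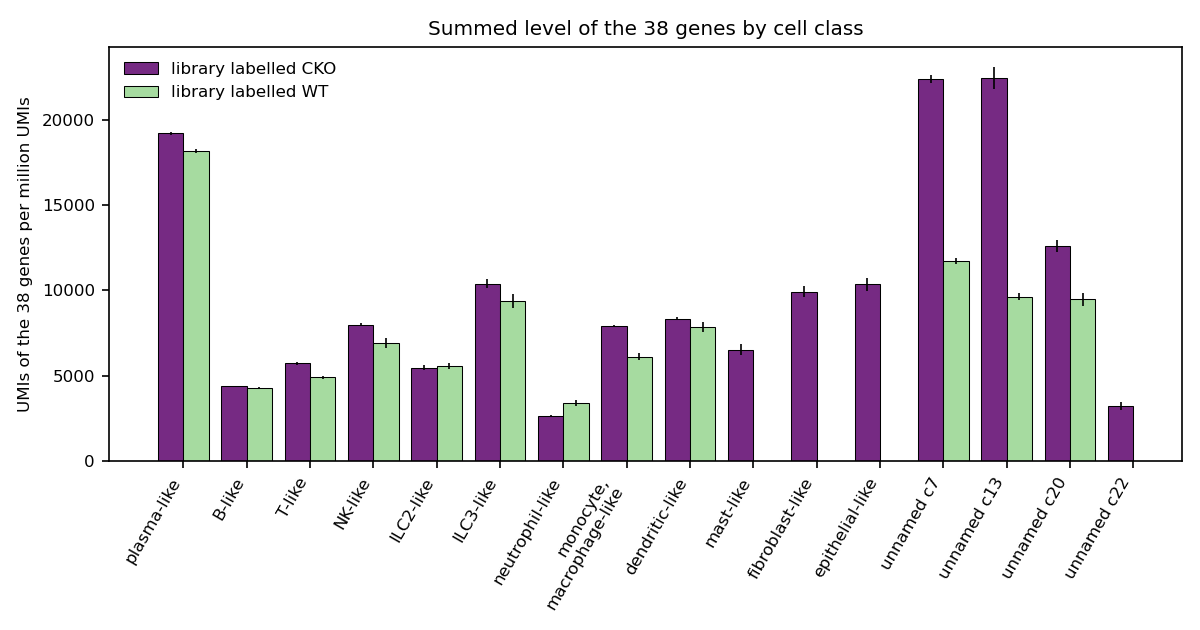
Summed level of the 38 genes per cell class (CPM, linear axis from 0) with 95% Poisson intervals, for the library labelled CKO (left bar of each pair) and the library labelled WT (right bar), in classes of at least 20 cells. Plasma-like cells, at 1.92 and 1.82% of UMIs, exceed every named class, and the unnamed clusters c7 and c13 of the CKO library reach 2.24 and 2.25%.

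Plasma-like cells varied among themselves in how much of this machinery they carried. The share of UMIs from the 38 genes had a median of 1.68% over cells of the CKO library, with a 10th percentile of 1.05% and a 90th of 3.26%. In the WT library the median was 1.51%, with 0.917 and 3.14%. When the cells of each library were put in 3 equal groups by their immunoglobulin share, the 38 genes made up 3.95, 3.80 and 3.91% of the remaining UMIs from the lowest to the highest group of the CKO library, and 3.76, 3.67 and 3.85% in the WT library. The summed machinery per unit of other RNA was thus nearly level over cells whose immunoglobulin share ran from 38.8 to 60.6% in the CKO library and from 39.5 to 61.7% in the WT library. Xbp1 was not level, with 1469, 1843 and 2195 CPM of the non-immunoglobulin UMIs in those groups of the CKO library, and 1429, 1890 and 2095 in the WT library. Hsp90b1 ran the other way in the CKO library, at 5743, 4762 and 4263, and in the WT library it was highest in the lowest group, at 6561, against 5100 and 5479. Most plasma-like cells carried IgA, 97.8% of the CKO and 96.0% of the WT library. IgM was carried by 7 CKO and 3 WT cells and IgG by 4 and 5, too few to compare.

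The comparison of the library labelled CKO with the library labelled WT bears on the study's main contrast. In plasma-like cells the 38 genes had nearly the same level. The summed share was 1.92% in the CKO library and 1.82% in the WT library, a log2 ratio of 0.08 (0.07 to 0.09). Only Mzb1 was higher past 1.5-fold, where 5.04% of all 9312 genes were, and Chac1 and Trib3 were lower, where 12.9% were. The other 35 genes lay between, with a median over the 38 of -0.03 against -0.14 over all genes. Xbp1, at 884 CPM in the CKO library and 853 CPM in the WT library, differed by log2 0.05 (-0.002 to 0.106), Atf6 by -0.01 and Ern1 by 0.09. Counted per cell in place of CPM, the sum turns, at 308 UMIs per cell in the CKO library and 383 in the WT library, and the deeper cells of the WT library go with it.

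Mzb1 had 2276 CPM in plasma-like cells of the CKO library and 1338 CPM in those of the WT library, a log2 ratio of 0.77 (0.73 to 0.81). The median cell had 1728 CPM in the CKO library and 954 CPM in the WT library. Without the 10 cells of most Mzb1 UMIs in each library the ratio was 0.91. Those cells are 1.965% of the CKO and 4.0% of the WT cells, so the trim tends to raise the ratio by itself. In cells with IgA the levels were 2214 CPM and 1297 CPM. In each of the 3 groups by immunoglobulin share it was higher in the CKO library as well, at 5103, 4152 and 4447 CPM of the non-immunoglobulin UMIs, against 3242, 2444 and 2430 in the WT library. Per cell it had 36.5 UMIs in the CKO library and 28.2 in the WT library, log2 0.38, which is below the fold.

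Chac1 had 32.9 CPM in plasma-like cells of the CKO library and 59.3 CPM in those of the WT library, a log2 ratio of -0.85 (-1.09 to -0.61) from 269 and 312 UMIs. It was found in 23.8% of plasma-like cells of the CKO library and 47.2% of those of the WT library, and after thinning to 1000 UMIs in 3.75% (2.27 to 5.79) and 4.07% (1.97 to 7.35), a difference not detectable at that depth. Without the 10 cells of most Chac1 UMIs in each library, which are a larger part of the WT cells, the ratio was -0.83. Trib3, with 8 UMIs in the CKO and 19 in the WT library, is named for passing the fold, after its values were seen. Ddit3, of the same branch, had 33.5 CPM in the CKO library and 40.3 CPM in the WT library, log2 -0.27 with an interval of -0.53 to 0.001.

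Below the fold, the functional groups held small differences of either sign. Of the 6 degradation genes, 5 had a positive log2 ratio, led by Herpud1 with 553 CPM in the CKO library and 410 CPM in the WT library (0.43, interval 0.36 to 0.51). Edem1 followed at 0.37, Sel1l at 0.31 and Syvn1 at 0.25, while Derl1 stood at -0.21. Derl3, at 0.01, was level, and on the scale without immunoglobulin genes it stood just below 0. All 5 translocation genes were slightly above 0, between 0.05 and 0.17. Of the 10 chaperones and cofactors 7 were below 0 (8 without immunoglobulin genes, where Dnajc3 turned), among them Sdf2l1 at -0.35 and Hsp90b1 at -0.18, and the disulfide isomerases Pdia3, Pdia4 and Pdia6 were at -0.37, -0.23 and -0.20. Leaving out the 10 cells of most UMIs of each gene in each library takes 1.965% of the CKO and 4.0% of the WT plasma-like cells. That unequal trim tends to raise the ratio by itself, so it cannot tell whether the values below 0 rest on few cells. With it, Hsp90b1 stood at -0.02, Pdia4 at -0.06, Pdia6 at -0.08 and Sdf2l1 at -0.14, and Creld2 at 0.18 against -0.15 over all cells. Herpud1 stood at 0.48 and Edem1 at 0.41. The 16 other degradation genes had a median of -0.02 and the 18 other translocation genes of -0.05. Both medians lie slightly below 0, but above the median of -0.135 over all genes. All these differences are smaller than 1.5-fold, and with 1 library per label the spread between libraries is unknown.

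**Figure D4:**
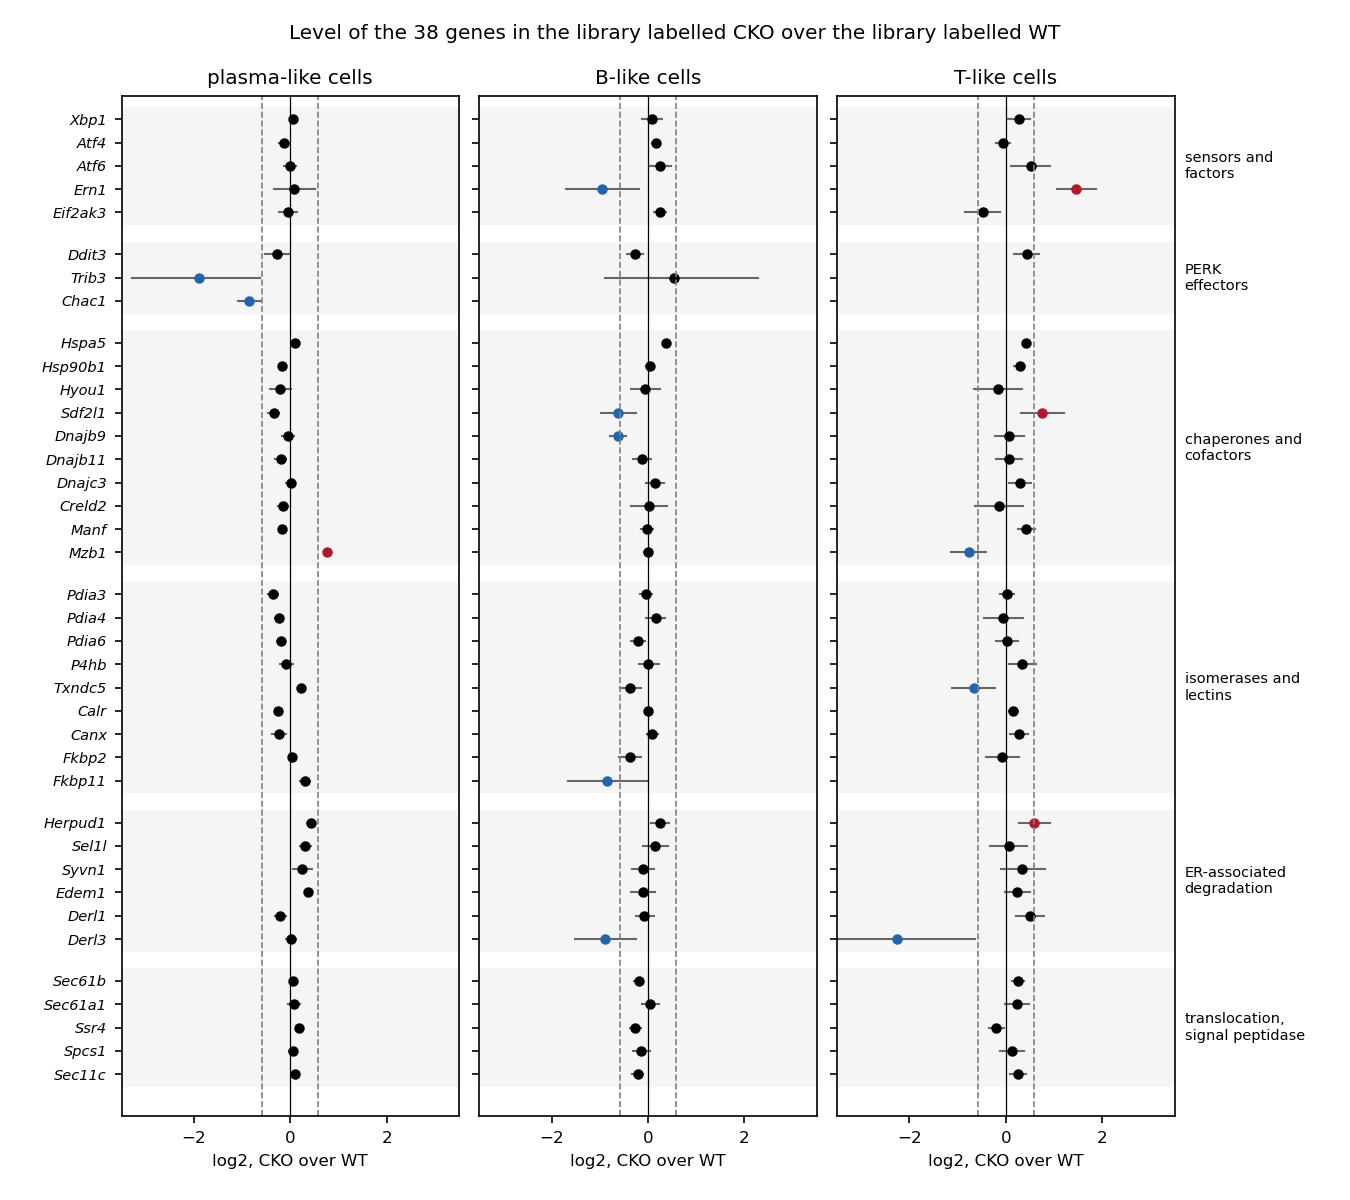
Log2 ratio of CKO over WT for each gene in plasma-like (left), B-like (middle) and T-like cells (right), with 95% intervals for counting error. Dashed lines mark 1.5-fold, coloured points lie past it, and genes with fewer than 20 UMIs are left out; lines that reach the edge of a panel go on beyond it. The plasma-like panel has 1 point past the right line (Mzb1) and 2 past the left line (Chac1 and Trib3).

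In B-like cells the summed share was 0.437% in the CKO library and 0.427% in the WT library, a log2 ratio of 0.03 (0.01 to 0.05). None of 37 genes was higher past the fold, where 5.18% of all genes were, and 5 were lower, where 7.59% were. These were Ern1, Derl3, Fkbp11, Dnajb9 and Sdf2l1, and the first 3 have fewer than 100 UMIs over both libraries and are named after their values were seen. Dnajb9, which represses IRE1, had 59.4 CPM in the CKO library and 91.7 CPM in the WT library, log2 -0.63 (-0.79 to -0.47). Hspa5 had 799.7 CPM in the CKO library and 619 CPM in the WT library, log2 0.37 (0.31 to 0.43). The largest cluster of the class was c2 among CKO cells (2601 of 5088) and c0 among WT cells (501 of 1173). With the clusters weighted alike, an alternative chosen after seeing the data, 3 genes stayed past the fold (Ern1, Derl3 and Fkbp11), Dnajb9 stood at -0.49 and Hspa5 at 0.46. Hspa5 was higher in the CKO library within each of c0, c1 and c2, at 890, 991 and 692 CPM against 648, 623 and 522 CPM in the WT library. Jchain was lower in B-like cells of the CKO library too, at 218 CPM against 502.5 CPM in the WT library, and its part in the values of Derl3 and Fkbp11 was not tested.

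In T-like cells, the cells the title of the series is about, the summed share was 0.573% in the CKO library and 0.489% in the WT library, a log2 ratio of 0.23 (0.20 to 0.26). Of 35 genes read, 3 were higher past the fold, where 12.1% of all genes were, and 3 were lower, where 7.52% were. Ern1 had 66.7 CPM in the CKO library and 24.3 CPM in the WT library, log2 1.46 (1.06 to 1.88). Sdf2l1 had 39.3 CPM in the CKO library and 23.2 CPM in the WT library, log2 0.76, and Herpud1 72.8 CPM and 48.2 CPM, log2 0.60. The lower genes were Mzb1 at -0.77, Txndc5 at -0.66 and Derl3, the last with 4 UMIs in the CKO library and 17 in the WT library. Jchain had 272 CPM in T-like cells of the CKO library and 818 CPM in those of the WT library. At the ratios of plasma-like cells those Jchain UMIs would carry 89.9 and 50.4% of the Derl3 UMIs, 39.5 and 36.7% of the Mzb1 UMIs and 26.7 and 38.7% of the Txndc5 UMIs, and the part of such RNA in these differences was not tested.

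The make-up of the T-like class differed between the libraries. The largest cluster was c9, led by Tnfrsf4 and Cd6, among CKO cells (291 of 646) and c15, led by Lef1 and Ly6c1, among WT cells (182 of 433). Ern1 was close to absent in c15, at 2.86 CPM in the CKO library and 3.87 CPM in the WT library. In c9 it had 91.9 CPM in the CKO library and 34.5 CPM in the WT library, and in c4, led by Cd7 and Ikzf2, 53.3 CPM and 39.2 CPM. With the clusters weighted alike, which was also chosen after seeing the data, Ern1 stood at log2 1.01 and was the only gene higher past the fold. Sdf2l1 stood at 0.34 and Herpud1 at 0.47, the sum at 0.11, and the 3 lower genes stayed lower. Hspa5 had 1400 CPM in the CKO library and 1048 CPM in the WT library over all T-like cells, and was higher in the CKO library within c4, c9 and c15, at 1347, 1524 and 1042 CPM against 1179, 1133 and 874 CPM.

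The innate classes held fewer WT cells, and their values are given with that limit. In neutrophil-like cells (1910 CKO and 202 WT) 17 of 33 genes were lower in the CKO library, where 38.1% of all genes were, and 1 was higher, where 15.5% were. The summed share was 0.263% in the CKO library and 0.338% in the WT library. The class was 1 cluster here, but its make-up differed: under the stricter cell filter, neutrophil-like cells led by Ngp, Retnlg and Lcn2 formed a cluster of 469 CKO cells and 1 WT cell, beside another of 1300 and 169. The part of that make-up in the values was not tested. Among those lower were P4hb with 51.0 CPM in the CKO library and 111 CPM in the WT library, Canx with 32.8 CPM and 76.6 CPM, Calr with 104 CPM and 172 CPM, and Atf4 with 167 CPM and 276 CPM. Hspa5, with 1130 CPM and 1210 CPM, was about level. Jchain was lower as well, at 220.2 CPM in the CKO library and 630 CPM in the WT library, and its part was not tested. In monocyte and macrophage-like cells (1171 CKO and 52 WT) 9 of 36 genes were higher in the CKO library, where 17.0% of all genes were, and 2 were lower, where 21.7% were. Hspa5 had 2547 CPM in the CKO library and 1793 CPM in the WT library there, and Hsp90b1 601 CPM and 364 CPM. In NK-like cells (497 CKO and 51 WT) 7 of 35 genes were higher, where 20.7% of all genes were, and 1 was lower, where 13.1% were. In ILC2-like cells 1 of 34 genes was higher (12.1%) and 3 lower (12.5%), in ILC3-like cells 6 of 32 higher (12.7%) and 2 lower (14.1%), and in dendritic-like cells 3 of 35 higher (22.6%) and 6 lower (14.0%).

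Other genes of the secretory pathway, from lists that hold none of the 38, were read the same way. Of 26 genes of ER to Golgi transport, 15 were higher and 0 lower in plasma-like than in B-like cells of the CKO library. In the WT library 14 were higher and 0 lower. Over all genes 12.2 and 11.9% were higher and 70.3 and 69.7% lower in the CKO and WT libraries. Lman1, a cargo receptor, had 339 CPM in plasma-like and 21.1 CPM in B-like cells of the CKO library, and 319 CPM and 24.8 CPM in those of the WT library. Sec24d, a coat subunit, had log2 ratios of 3.89 in the CKO library and 3.70 in the WT library. Kdelr3, a receptor that returns ER proteins, had 125 UMIs in plasma-like and 2 in B-like cells of the CKO library, and 78 and 2 in those of the WT library, with intervals of the log2 ratio from 5.12 to 10.06 and from 3.38 to 8.35. Of 18 genes of signal recognition, the translocon and signal peptidase, 11 and 12 were higher and 1 and 0 lower in the CKO and WT libraries, led by the signal peptidase subunit Spcs3 at log2 2.81 and 2.57. Of 15 genes of N-glycan transfer, 11 and 9 were higher and 2 and 2 lower. There Ddost and Rpn1, of the oligosaccharyltransferase, were higher by log2 2.20 and 1.78 in the CKO library and 2.03 and 1.77 in the WT library. Stt3b, a catalytic subunit of the same enzyme, was lower, with 40.1 CPM in plasma-like and 148 CPM in B-like cells of the CKO library, and 62.7 CPM and 139 CPM in those of the WT library.

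In CPM, oxidative folding showed the same kind of split. Of the 12 genes read in the CKO library 7 were higher and 2 lower, and of the 11 in the WT library 7 and 2. Beside these and the lists below, 12.2 and 11.9% of all genes were higher and 70.3 and 69.7% lower in the CKO and WT libraries. Prdx4, which uses peroxide to drive disulfide formation, had 314 CPM in plasma-like and 15.02 CPM in B-like cells of the CKO library, and 272 CPM and 18.3 CPM in those of the WT library. Selenom, a selenoprotein of the ER, was higher by log2 5.69 (5.16 to 6.28) and 6.73 (5.36 to 8.61), the second from 4 UMIs in B-like cells. The oxidase Ero1lb was lower, with 28.4 CPM in plasma-like and 102 CPM in B-like cells of the CKO library, and 33.4 CPM and 99.7 CPM in those of the WT library. Of 16 further genes of ER-associated degradation, 8 and 8 were higher and 3 and 4 lower, led by Edem2 at log2 4.72 and 4.29. Of the ATF4 targets read (21 and 20), 8 and 8 were higher and 5 and 4 lower, with Asns, asparagine synthetase, at log2 4.55 and 3.01 and Atf5 at 3.26 and 2.51. Without immunoglobulin genes in the totals, oxidative folding had 9 and 9 genes higher and 1 and 0 lower (CKO and WT). N-glycan transfer then had 13 and 13 higher and 2 and 0 lower. The degradation list had 13 and 12 higher and the ATF4 list 15 and 16, with 0 lower in either. On that scale the share over all genes was not counted. Of 13 cytosolic heat shock genes, 1 was higher and 9 lower in the CKO library, where 70.3% of all genes were lower, a share near that background. In the WT library 1 was higher and 12 lower, where 69.7% were lower. Their medians were -1.83 and -1.98, against -1.30 and -1.18 over all genes, and without immunoglobulin genes -0.83 and -0.95, against -0.30 and -0.15. Hspa1b had 6.00 CPM in plasma-like and 54.5 CPM in B-like cells of the CKO library, and 4.75 CPM and 113 CPM in those of the WT library.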

How the data were processed

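The authors deposited raw UMI counts for every gene in every barcode, without normalization, made by the authors with Cell Ranger (6.0.1 per the file headers, 5.0.0 per the submitters' processing notes, which also name Seurat 3.2.3 and mm10). The members and gene lists were chosen with earlier results of these data known. The CKO library held 57740083 UMIs and the WT library 18627050, and 6 barcodes occurred in both. A second row named Ddit3 held 0 UMIs and was left out.

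Barcodes with fewer than 200 genes or over 20% mitochondrial UMIs were left out (36 and 130 in the CKO library, 11 and 42 in the WT library), as were Scrublet doublets (1.91 and 0.0342% of cells, below the expected rate of 0.8% per 1000 cells, so doublets may remain). The libraries were clustered together with scanpy 1.11.5 (2000 variable genes, 30 components, 15 neighbours, Leiden resolution 1, seed 0) with the 38 genes, the pathway lists and immunoglobulin segments kept out. Clusters were named from marker lists where at least 3 markers were detected in 20% of cells and their median fold over other cells was at least 2. A cluster stayed unnamed where another list came close in fold or had more markers among the 10 leading genes. So did a shallow cluster with no marker among those genes. In c7 and c13 plasma was the best list, but the folds were 1.28 and 1.34. In all, 218 CKO and 565 WT cells stayed unnamed. UMIs were summed per class and library. Sums have exact Poisson intervals, ratios conditional intervals and shares of cells exact binomial intervals, at 95%, for counting error only. A heavy chain was assigned where 0.8 of a cell's heavy chain UMIs were of 1 kind. All 38 members are accounted for, members with 100 or more UMIs in a class may be given in full, and up to 4 genes of each other list were named by the size of their plasma over B ratio in the same direction in both libraries. The ratio step was tested on simulated sums. Promoters are from RefSeq (GRCm38.p6). The closing section gives the effect of the alternatives.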

Additional observations from a re-analysis of the deposited data

Results flagged for a closer look

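Mzb1 went in opposite directions in different cells of the same libraries. Its log2 ratio of CKO over WT was 0.77 in plasma-like cells, against -0.77 in T-like and -1.26 in neutrophil-like cells. The difference was not tested, since each label has 1 library. In T-like cells it had 103 UMIs in the CKO library and 157 in the WT library, and in neutrophil-like cells 108 and 23. Jchain moved the same way as Mzb1 in those classes, at 272 CPM in the CKO and 818 CPM in the WT library in T-like cells and 220.2 and 630 CPM in neutrophil-like cells, and its part was not tested.

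Clusters that no class could be named for differed between the libraries, a comparison of CKO with WT not given above. Cluster c7, led by the cell cycle genes Pclaf, Top2a and Mki67, held 81 CKO and 55 WT cells, and the 38 genes made up 2.24% of its UMIs in the CKO library and 1.17% in the WT library, log2 0.94. Of 36 genes read 23 were higher and 0 lower, where 11.7% of all genes were higher and 18.2% lower. Hsp90b1 had 4434 CPM there in the CKO library and 1773 CPM in the WT library, Hspa5 2443 and 1082 CPM, and Creld2 391 and 134 CPM. The cells of this cluster carried different heavy chains in the libraries. IgA was in 34 CKO and 17 WT cells, IgM in 24 and 3, IgG in 8 and 9, and no clear heavy chain in 15 and 26. Among those with IgA the median cell had 2.68% of its UMIs from the 38 genes in the CKO library and 1.42% in the WT library. Among those with no clear heavy chain the figures were 0.48 and 0.44%. They were 0.63 and 0.47% for IgM and 2.70 and 0.50% for IgG, from few WT cells.

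Cluster c13, of few UMIs per cell (medians of 1005 in the CKO and 1092 in the WT library), held 39 CKO and 467 WT cells, and its ratio was 1.22. Of 36 genes 25 were higher and 2 lower there, where 11.1% of all genes were higher and 53.3% lower. Its immunoglobulin share was 41.2% in the CKO library and 22.7% in the WT library. Cluster c20, led by Il17a, Cd163l1 and Trdc, held 68 CKO and 42 WT cells with a ratio of 0.41. Of 32 genes 4 were higher and 2 lower there, where 445 of all 3709 genes were higher and 661 lower, and Hspa5 had 4564 CPM there in the CKO library and 2400 CPM in the WT library.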

How the results depend on the processing

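No paired analysis was possible because each label has 1 library and the libraries carry no replicate numbers, and no library could be left out for the same reason. The counts of genes higher in plasma-like than in B-like cells stayed within 1.5 times of the reported ones under all alternatives tried (31 to 38 in the CKO library, 30 to 38 in the WT library). The log2 ratio of the sum there was 3.14 and 3.12 (CKO and WT) with immunoglobulin genes out of the totals and 4.43 and 4.33 as UMIs per cell. In the CKO library it was 2.17 with the 38 genes and the lists among the clustering genes, 2.16 under the stricter cell filter and 2.18 with each cell weighted alike, and in the WT library 1.86 at Leiden resolution 0.5.

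For CKO over WT, UMIs per cell reversed the sums, to -0.31 in plasma-like, -0.41 in B-like and -0.19 in T-like cells, and counted 12 genes past the fold in plasma-like and 12 in B-like cells, since cells of the WT library were deeper. The plasma-like sum was 0.05 without immunoglobulin genes, 0.12 at resolution 0.5 and 0.10 with heavy chain classes weighted alike. The B-like sum reversed to -0.14 at resolution 0.5 and -0.018 with each cell weighted alike, and was 0.006 with the 38 genes among the clustering genes and 0.10 with clusters weighted alike, an alternative chosen after seeing the data. Its direction is therefore not fixed. The T-like sum was 0.44 at resolution 0.5, 0.30 with the 38 genes among the clustering genes, 0.10 under the stricter filter and 0.11 with clusters weighted alike. At 2-fold, 1 gene was past the fold in plasma-like, 0 in B-like and 2 in T-like cells. In B-like cells 9 were past it at resolution 0.5 and 3 with clusters weighted alike. In T-like cells the count at resolution 0.5 was 9 higher and 0 lower, and under the stricter filter 1 and 5. Other than for UMIs per cell, the cause was not tested.

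Intervals treat UMIs as independent and miss the spread between mice and libraries. Neutrophil-like, NK-like, monocyte and dendritic-like values of the WT library rest on 202, 51, 52 and 31 cells.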
